A study of Homo sapiens with 6 samples.

Results

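Antisense RNAs are transcripts read from the strand opposite to a gene, and their symbols carry the name of that sense gene followed by -AS and, usually, a number. The RNA-seq table of 15024 genes held 390 rows with such symbols, and the 336 rows with a mean scaled read count of at least 10 over all 6 libraries are described here. The scaled read count is the number of reads on a gene divided by 1 size factor per library. A row for the sense partner, the gene named before -AS, was in the table for 318 of the 336, which gave 317 different sense genes. The last antisense RNAs inside the limit were STPG3-AS1, NAPA-AS1 and PKP4-AS1 with means of 10.1, 10.1 and 10.2, and the first outside were RBM5-AS1, CSNK1G2-AS1 and LIPE-AS1 with means of 9.73, 9.68 and 9.64.

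The cells were MDA-MB-231, a human line of triple-negative breast cancer, made null for MLL3, the histone methyltransferase encoded by KMT2C. All 6 samples, in both groups, carried this MLL3-null genotype and were kept for 14 days in 10 µM forskolin, which activates adenylyl cyclase and so raises cAMP and protein kinase A (PKA) activity. Flow sorting then gave CD44+CD104high cells, named hybrid EMT (epithelial-mesenchymal transition) cells in the series design (n = 3), and CD44+CD104-/low cells, named mesenchymal there and called CD104low here (n = 3). Biological replicates are numbered 1 to 3 per population, with no culture, clone or batch named, and p-values therefore cover only the spread among these libraries, which may be technical. Wild-type cells were not analysed here.

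Between 49791498 and 60069719 reads per library fell on the listed genes. ITGB4, which encodes the sorted protein CD104, had 15445, 14508 and 19435 in CD104high cells, against 1492, 2273 and 1333 in CD104low cells, a log2 fold change of 3.30 ± 0.19 (SE; adjusted p = 0.000126, limma). CD44, used to gate both populations, differed by 0.05 (adjusted p = 0.708, limma). Reads on KMT2C, the gene made null, were 3934, 3561 and 3952 in CD104high cells, against 2095, 2611 and 2814 in CD104low cells, with a log2 fold change of 0.62 ± 0.11 (SE; adjusted p = 0.0027, limma). The altered part of KMT2C is not named in the sources used here, so this level does not check the genotype. Markers of both states were present in all libraries. Summed, the epithelial markers had 95054 to 112630 in CD104high cells, against 82852 to 86597 in CD104low cells (5 of 6 measured), and the mesenchymal markers 56483 to 73547 in CD104high cells, against 33848 to 40048 in CD104low cells (5 of 5). KRT18 (0.34, SE 0.08, limma adjusted p = 0.0122), KRT19 (0.45, SE 0.07, limma adjusted p = 0.00194) and the mesenchymal matrix gene FN1 (1.52, SE 0.18, limma adjusted p = 0.000561) rose (log2 fold changes), while EPCAM (-0.32, SE 0.12, limma adjusted p = 0.0531) was not called and lay lower in every CD104high library. Within the mesenchymal sum FN1 had means of 37660 in CD104high cells and 13189 in CD104low cells. The other 4 mesenchymal markers were not called: VIM (0.06, adjusted p = 0.517), ZEB1 (0.15, 0.188), CDH2 (0.15, 0.789) and SPARC (0.81, 0.141, limma). The epithelial keratin gene KRT8, the largest part of the epithelial sum, had 58503, 57349.6 and 70452 in CD104high cells, against 56085, 51139 and 54036 in CD104low cells. It was not called (log2 fold change 0.20, SE 0.09, limma adjusted p = 0.0937). CDH1 of epithelium, CDH5 of endothelium, and PTPRC and CD3E of leukocytes were not analysed here. Summed over the markers listed for each cell type, leukocyte genes had 829 to 1044 in CD104high cells, against 481 to 549 in CD104low cells (4 of 8 markers measured), fibroblast genes 1877 to 3097 in CD104high cells, against 921 to 1440 in CD104low cells (5 of 6), and endothelial genes 65.9 to 98.3 in CD104high cells, against 53.3 to 91.0 in CD104low cells (2 of 5). Among the fibroblast markers DCN, PDGFRA and THY1 stayed under 14 in every library. PDGFRB (log2 fold change 1.07, adjusted p = 0.00309) and LUM (1.61, 0.0225, limma) rose. PDGFRB made up most of the fibroblast sum, with means of 2221 in CD104high cells and 1062 in CD104low cells. CD14 and LAPTM5 made up most of the leukocyte sum. The part of such cells in the results was not tested. In bulk samples fewer cells of a type and less RNA per cell cannot be told apart.

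Antisense RNAs can share a promoter region with their sense gene and be transcribed away from it, or run across its exons and form double-stranded RNA with its transcript. Many stay in the nucleus, are kept short-lived by the nuclear exosome, and are present at lower levels than the messenger RNA across from them. Some are known to raise or lower the output of the sense gene, and for many no function is known. Double-stranded RNA is edited by ADAR, cut by DICER1 and sensed by the kinase PKR, encoded by EIF2AK2.

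By the GENCODE 29 annotation on GRCh38, 225 of the 318 pairs overlapped in exon sequence on opposite strands. A further 61 stood head-to-head, meaning that the nearest transcript starts lay within 1 kb of each other on opposite strands with no shared exon bases. Head-to-head genes may also overlap outside their exons. In 24 more pairs, with starts over 1 kb apart, the genes overlapped without shared exon bases, and 8 pairs lay apart. Starts of the head-to-head pairs were 1 to 916 bp apart, with a median of 151 bp. In pairs with exon overlap, between 0.116% and 69.9% of the antisense exon bases lay across from sense exons, with a median of 11.1%. The sources used here do not name a strand setting, so in these stretches reads of the antisense RNA and of the sense gene may not be told apart.

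The 4 windows below show the start regions of pairs that moved in different ways, since the pair arrangement decides how much promoter sequence both partners hold in common. Each runs 5′ to 3′ on the antisense strand from 250 bases before to 50 bases after the annotated start, from RefSeq on GRCh38.p14. They are PRKAR2A-AS1 at chr3:48847687-48847986 (plus strand), where the partners moved in opposite directions, COA6-AS1 at chr1:234373354-234373653 (minus strand), where both fell, HHIP-AS1 at chr4:144645970-144646269 (minus strand), where the sense gene alone was called, and SCOC-AS1 at chr4:140373343-140373642 (minus strand), an antisense RNA that fell by 2.05 on the log2 scale. Capitals mark, in the first 3, the bases that also lie within the promoter window of the sense gene, and in SCOC-AS1 the CCAAT box letters CCAAT read on either strand.
PRKAR2A-AS1: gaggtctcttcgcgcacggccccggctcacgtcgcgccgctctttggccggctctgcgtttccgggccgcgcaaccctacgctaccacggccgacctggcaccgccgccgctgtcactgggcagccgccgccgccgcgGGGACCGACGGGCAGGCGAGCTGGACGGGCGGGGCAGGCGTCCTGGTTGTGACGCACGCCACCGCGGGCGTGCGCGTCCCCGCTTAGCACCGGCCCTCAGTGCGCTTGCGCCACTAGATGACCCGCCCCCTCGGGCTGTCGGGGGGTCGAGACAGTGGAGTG
COA6-AS1: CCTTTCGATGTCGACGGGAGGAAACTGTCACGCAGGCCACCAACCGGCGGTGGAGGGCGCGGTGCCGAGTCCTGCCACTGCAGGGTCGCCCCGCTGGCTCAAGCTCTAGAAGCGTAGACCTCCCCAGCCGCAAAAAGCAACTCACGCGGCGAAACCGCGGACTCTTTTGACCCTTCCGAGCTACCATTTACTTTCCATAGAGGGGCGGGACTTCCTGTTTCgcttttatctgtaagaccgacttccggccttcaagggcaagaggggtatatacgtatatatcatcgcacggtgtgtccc
HHIP-AS1: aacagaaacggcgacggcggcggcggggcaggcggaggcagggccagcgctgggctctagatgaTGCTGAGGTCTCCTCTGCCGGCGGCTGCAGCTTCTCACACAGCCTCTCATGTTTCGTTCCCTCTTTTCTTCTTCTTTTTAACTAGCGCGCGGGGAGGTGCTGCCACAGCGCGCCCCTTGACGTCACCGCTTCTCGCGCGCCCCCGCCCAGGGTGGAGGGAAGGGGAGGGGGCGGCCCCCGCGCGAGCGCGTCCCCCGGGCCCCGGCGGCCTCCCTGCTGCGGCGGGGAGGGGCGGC
SCOC-AS1: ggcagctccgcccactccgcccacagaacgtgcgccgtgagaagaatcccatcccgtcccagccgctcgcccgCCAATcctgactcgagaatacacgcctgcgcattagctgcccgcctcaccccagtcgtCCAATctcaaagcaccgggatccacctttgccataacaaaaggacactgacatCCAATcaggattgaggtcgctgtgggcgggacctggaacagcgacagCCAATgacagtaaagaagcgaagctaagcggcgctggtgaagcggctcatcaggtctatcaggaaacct
The stretch shared with the sense window was 162 bases for PRKAR2A-AS1, 221 for COA6-AS1 and 236 for HHIP-AS1. The SCOC-AS1 window held 4 CCAAT boxes, and shared no base with the RefSeq window of SCOC, although a GENCODE start of SCOC lies 93 bp from that of SCOC-AS1.

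Most antisense RNAs were scarce. Their mean scaled read counts ran from 10.1 to 11055 with a median of 56.9, 159 of the 336 were under 50, and 14 reached 1000. Per kilobase of transcript the antisense level was a median of 11.1% of the level of its sense partner (quartiles 2.64% and 64.9%, 318 pairs), and in 57 pairs the antisense RNA was the higher partner per kilobase. Antisense transcripts had a median length of 2111 bases and sense transcripts one of 4182.

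Of the 336 antisense RNAs, 333 passed the filter on low values (a scaled read count of at least 10 in at least 3 libraries) and were tested. In CD104high cells against CD104low cells, 33 rose and 29 fell (limma, adjusted p under 0.05 over 14420 genes). That is 18.6% called, where 43.4% of all tested genes were called (21.8% higher and 21.6% lower), and where 129 of 312 tested sense partners were called (81 higher, 48 lower, 41.3%). The populations did not overlap in 108 antisense RNAs (32.4%), against 54.3% of all genes. The higher share among calls was 53.2%, but 29.8% after quantile normalization (17 higher, 40 lower) and 73.2% after a correction for transcript length and GC content (52 higher, 19 lower), so the balance of higher and lower antisense RNAs depended on scaling. Without CD104low replicate 1 the counts were 24 higher and 11 lower, without CD104high replicate 1 they were 18 and 17, and without CD104low replicate 3 they were 29 and 18. Without CD104high replicate 2 they were 28 and 19, and without CD104low replicate 2 they were 45 and 26.

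**Figure D1:**
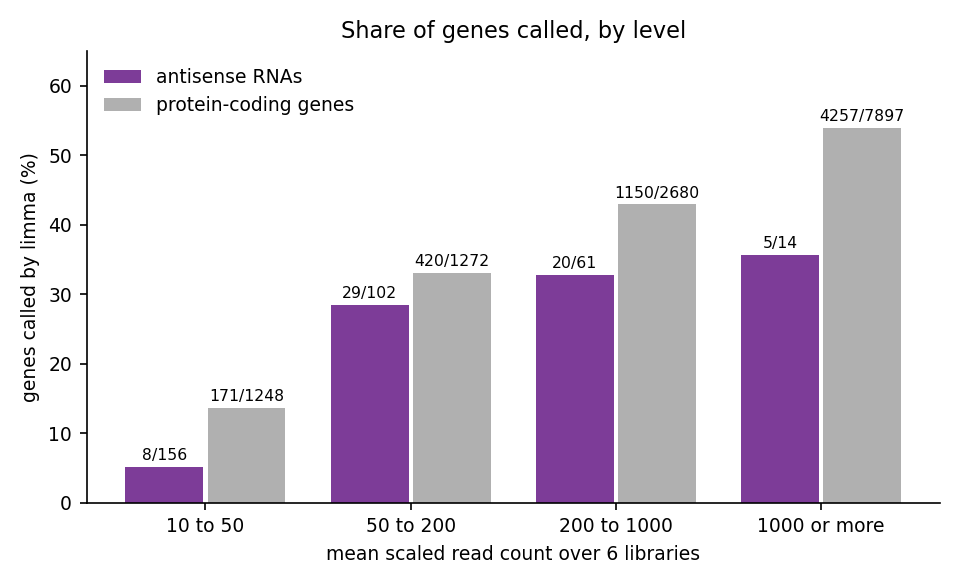
Share of genes called by limma (y axis, percent) among antisense RNAs (purple) and protein-coding genes (grey), by mean scaled read count over the 6 libraries (x axis). Numbers over the bars give called and tested genes. In each level class the antisense share is the lower one, from 5.13% against 13.7% at 10 to 50, to 35.7% against 53.9% at 1000 or more.

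The share of antisense RNAs called moved with the level. At means of 10 to 50 it was 5.13% of 156, at 50 to 200 it was 28.4% of 102, at 200 to 1000 it was 32.8% of 61, and at 1000 or more it was 35.7% of 14. Protein-coding genes in the same classes were called in 13.7%, 33.0%, 42.9% and 53.9%. The median absolute log2 fold change was 0.40 in antisense RNAs and 0.24 in sense partners, with median standard errors of 0.27 and 0.10. The median log2 fold change was 0.10 for antisense RNAs, 0.06 for sense partners and 0.02 for all genes. By the authors' deposited table, 78 of the tested antisense RNAs had an adjusted p under 0.05 (47 higher, 31 lower), where 45.7% of the 14732 genes with such a value did, and 61 of the 62 limma calls were among them with the same direction.

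Antisense RNAs called with a log2 fold change of 1 or more in size were 12 higher and 4 lower, where 5.84% of all tested genes were (4.89% higher, 0.95% lower). They are described by what the sense gene across from them does. Of the 18 antisense RNAs without a row for their sense gene, 4 rose and 1 fell, where 43.4% of all tested genes were called. The other 46 called antisense RNAs changed by less, 21 with log2 fold changes of 0.34 to 0.99 and 25 with -0.93 to -0.27. The 271 that were not called had log2 fold changes of -1.03 to 1.76, and in 47 of them the populations did not overlap. Over all tested genes, called or not, the populations did not overlap in 54.3%.

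**Figure D2:**
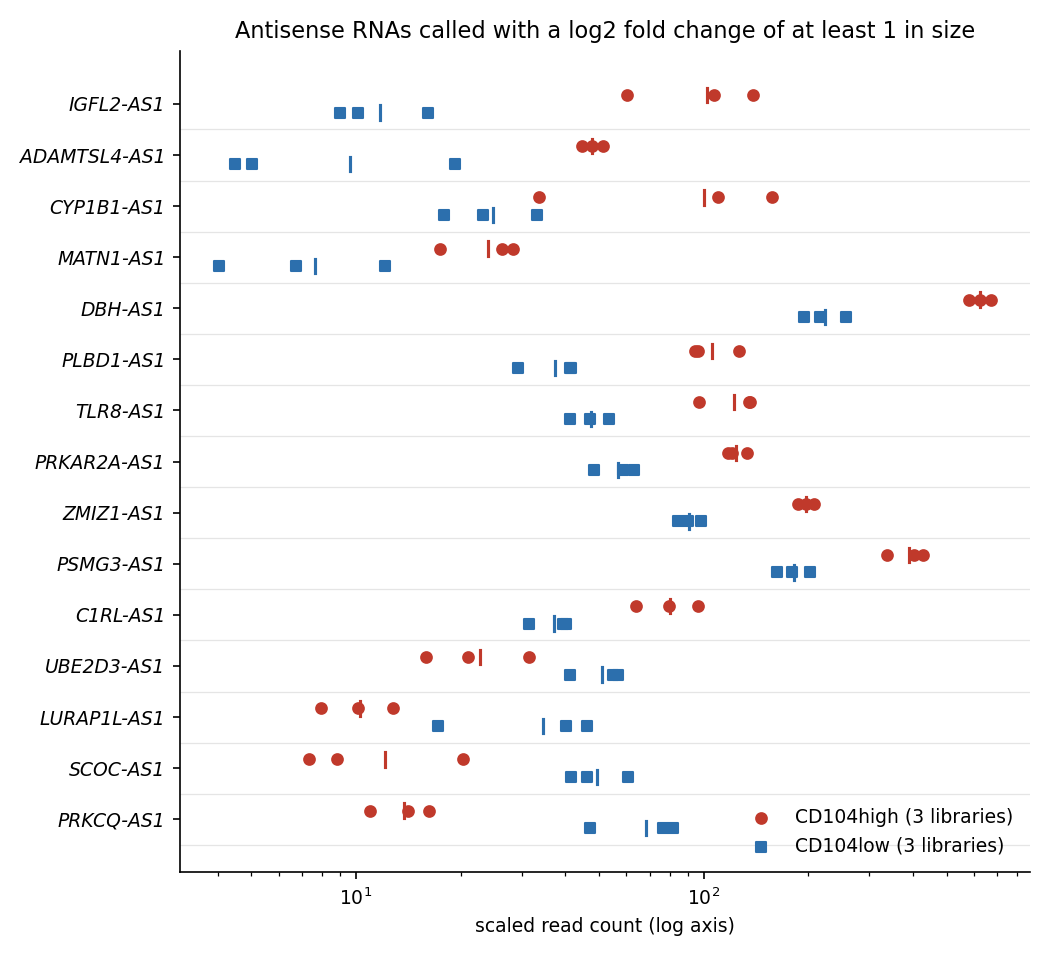
Scaled read counts (x axis, log scale) of 15 called antisense RNAs with log2 fold changes of 1 or more in size. Red circles are the 3 CD104high libraries, blue squares the 3 CD104low libraries, and vertical ticks the population means. The upper 11 lie higher in CD104high cells and the lower 4 lower, with the populations apart in all 15, closest in CYP1B1-AS1, where the lowest CD104high library had 33.5 and the highest CD104low library 33.2.

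Across from genes of the extracellular matrix and cytoskeleton, both ADAMTSL4-AS1 and MATN1-AS1 rose. ADAMTSL4-AS1 (chr1:150560202-150574552, minus strand), opposite the gene of a secreted ADAMTS-like glycoprotein that binds fibrillin microfibrils, had 51.3, 47.7 and 44.6 in CD104high cells, against 5.03, 19.2 and 4.49 in CD104low cells. Its log2 fold change was 2.48 ± 0.51 (SE; adjusted p = 0.005, limma). CD104low replicate 2 stood well above the other CD104low libraries but below all CD104high ones, and without it the log2 fold change was 3.08. The sense gene ADAMTSL4 rose as well. It had 2572, 2389 and 2468 in CD104high cells, against 813, 1012 and 721 in CD104low cells, a log2 fold change of 1.56 ± 0.12 (SE; adjusted p = 0.000202, limma).

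MATN1-AS1 (chr1:30718504-30726827, plus strand), named for the cartilage matrix protein matrilin-1, had 17.4, 28.2 and 26.4 in CD104high cells, against 4.02, 12.1 and 6.74 in CD104low cells, a log2 fold change of 1.62 ± 0.46 (SE; adjusted p = 0.0206, limma). It lost its call without CD104high replicate 2 (adjusted p = 0.0724), CD104high replicate 3 (0.0552) or CD104low replicate 1 (0.0684, limma). MATN1 itself was not analysed here.

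Smaller changes were seen across from other structural genes. FLG-AS1, opposite the gene of filaggrin, which bundles keratin filaments in the epidermis, had 415, 361 and 356 in CD104high cells, against 211, 239.6 and 211 in CD104low cells (log2 fold change 0.77, SE 0.13, limma adjusted p = 0.00219). FLG had 6463, 5075 and 6687 in CD104high cells, against 1948, 1805 and 3764 in CD104low cells, a log2 fold change of 1.35 ± 0.25 (SE; adjusted p = 0.00321, limma). Neither row overlapped between populations. KRT7-AS, across from the simple-epithelium keratin gene KRT7, had 333, 303 and 303 in CD104high cells, against 216, 239.6 and 208 in CD104low cells (log2 fold change 0.50, SE 0.13, limma adjusted p = 0.0139), and KRT7 rose by 0.33 ± 0.11 (SE; adjusted p = 0.0361, limma). The KRT7-AS call was lost without CD104high replicate 1 (adjusted p = 0.0635), without CD104low replicate 1 (0.0527) and after quantile normalization (0.0796, limma). That of KRT7 was lost without any of CD104low replicates 1, 2 and 3 (adjusted p = 0.0927, 0.071 and 0.0777) and in limma without the trend (0.0907).

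VIM-AS1, whose annotated start lies 19 bp from that of VIM, the gene of the mesenchymal intermediate filament vimentin, fell. It had 186, 164 and 171 in CD104high cells, against 289, 246 and 267 in CD104low cells, without overlap, with a log2 fold change of -0.62 ± 0.14 (SE; adjusted p = 0.00778, limma). VIM differed by 0.06 (adjusted p = 0.517, limma), with 21251 ± 1831 in CD104high cells and 20323 ± 386 in CD104low cells (SD, n = 3 each). After the length and GC correction VIM-AS1 had a log2 fold change of -0.12 and was not called (adjusted p = 0.497, limma). TTN-AS1, across from the gene of the muscle spring titin, had 82.4, 73.3 and 94.3 in CD104high cells, against 50.3, 52.6 and 37.1 in CD104low cells, with a log2 fold change of 0.83 ± 0.23 (SE; adjusted p = 0.0198, limma), while TTN was not called (0.30, adjusted p = 0.375, limma). The exons of this pair overlap by 11381 bases, or 55.1% of the antisense exons, and the TTN-AS1 call was lost after quantile normalization (adjusted p = 0.106), without CD104high replicates 1 and 3 (0.0627 and 0.0577) and without CD104low replicate 3 (0.0613). LOXL1-AS1, across from the gene of an elastin cross-linking oxidase, was not called (0.11, adjusted p = 0.455), whereas LOXL1 rose by 0.49 (adjusted p = 0.0165, limma), a call lost without CD104high replicate 2 (0.0524) or CD104low replicate 1 (0.0648).

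Next are antisense RNAs whose sense genes encode enzymes and mitochondrial proteins. DBH-AS1 (chr9:133654586-133657313, minus strand) is named for dopamine beta-hydroxylase, the enzyme that makes noradrenaline from dopamine. It had 672, 581 and 625 in CD104high cells, against 195, 257 and 217 in CD104low cells, with a log2 fold change of 1.49 ± 0.14 (SE; adjusted p = 0.000265, limma). DBH had 338, 443 and 327 in CD104high cells, against 111, 176 and 102 in CD104low cells, with a log2 fold change of 1.53 ± 0.23 (SE; adjusted p = 0.00124, limma). All CD104high libraries were above all CD104low ones in both rows. The overlap of this pair covers 5.52% of the antisense exons, and per kilobase DBH-AS1 stood at 198 and DBH at 66.1 over the 6 libraries.

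CYP1B1-AS1 (chr2:38073447-38231651, plus strand) starts 85 bp from CYP1B1, the gene of a cytochrome P450 that oxidises oestradiol and polycyclic aromatic hydrocarbons. It had 109.8, 33.5 and 157 in CD104high cells, against 33.2, 23.3 and 18.0 in CD104low cells, with a log2 fold change of 1.76 ± 0.53 (SE; adjusted p = 0.026, limma). CYP1B1 had 7694, 3142 and 18372 in CD104high cells, against 1486, 1529 and 1859 in CD104low cells, with 2.24 ± 0.51 (SE; adjusted p = 0.00792, limma). In both rows the CD104high libraries were in the order replicate 3, 1 and 2 from high to low, and CD104high replicate 2 of CYP1B1-AS1 was only just above the highest CD104low library. Without CD104high replicate 2 the log2 fold changes were 2.40 for CYP1B1-AS1 and 2.88 for CYP1B1, and without CD104high replicate 3 that of CYP1B1 was 1.60. The CYP1B1-AS1 call was lost without CD104high replicate 1 (adjusted p = 0.0928), CD104high replicate 3 (0.0709) or CD104low replicate 3 (0.0742), after quantile normalization (0.0502) and in limma without the trend (0.0621).

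PLBD1-AS1 (chr12:14567750-14619755, plus strand), across from the gene of a phospholipase B-like protein, had 96.1, 94.4 and 127 in CD104high cells, against 41.2, 29.3 and 41.6 in CD104low cells, with a log2 fold change of 1.48 ± 0.24 (SE; adjusted p = 0.00188, limma). PLBD1 had 284, 343 and 307 in CD104high cells, against 288, 271 and 256 in CD104low cells, and was not called (0.19 ± 0.13, adjusted p = 0.259, limma). COA6-AS1, whose start window is printed above, had 55.8, 37.1 and 49.7 in CD104high cells, against 79.4, 77.9 and 78.6 in CD104low cells, and COA6, the gene of an assembly factor of cytochrome c oxidase, had 632, 584 and 657 in CD104high cells, against 1348, 924 and 1259 in CD104low cells. Both fell, with log2 fold changes of -0.73 ± 0.23 (SE; adjusted p = 0.0301, limma) and -0.90 ± 0.14 (SE; adjusted p = 0.0017, limma). The 3 CD104low values of COA6-AS1 were nearly equal, and its call was lost without CD104high replicate 2 (adjusted p = 0.0937), without CD104low replicate 1, 2 or 3 (0.0891, 0.0564 and 0.0721) and after the length and GC correction (0.138, limma).

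PKA is the kinase that forskolin activates through cAMP, and PRKAR2A encodes its regulatory subunit RII alpha, which holds the catalytic subunits inactive until cAMP binds. PRKAR2A-AS1 (chr3:48847572-48851981, plus strand) had 117, 133 and 121 in CD104high cells, against 48.3, 58.6 and 62.9 in CD104low cells, a log2 fold change of 1.12 ± 0.20 (SE; adjusted p = 0.00248, limma). PRKAR2A had 8097, 8358 and 8018 in CD104high cells, against 9967, 9179 and 9606 in CD104low cells, and fell slightly (log2 fold change -0.23, SE 0.06, limma adjusted p = 0.0123). Neither row overlapped between the populations, and the antisense row was high where the sense row was low. The PRKAR2A call was lost without CD104high replicate 1 (adjusted p = 0.0504) or CD104low replicate 1 (0.0558, limma). Per kilobase PRKAR2A-AS1 stood at 1.91% of PRKAR2A, and both partners hold the CG-rich stretch in capitals in the window above.

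In other signalling genes, PRKCQ-AS1 (chr10:6580419-6616452, plus strand), named for the T-cell protein kinase C theta, had the largest fall of the 29 lower antisense RNAs. It had 11.0, 14.1 and 16.2 in CD104high cells, against 76.4, 81.9 and 47.2 in CD104low cells, with a log2 fold change of -2.21 ± 0.32 (SE; adjusted p = 0.00112, limma). No CD104high library came near the lowest CD104low one. PRKCQ was not analysed here. PTPRG-AS1, across from the gene of the receptor tyrosine phosphatase gamma, had 217, 202 and 268 in CD104high cells, against 345, 291 and 411 in CD104low cells (log2 fold change -0.60, SE 0.17, limma adjusted p = 0.0211). PTPRG had 12183, 13013 and 13404 in CD104high cells, against 7610.0, 8473 and 8804 in CD104low cells, and rose (log2 fold change 0.63, SE 0.07, limma adjusted p = 0.000474). The PTPRG-AS1 call was lost without CD104high replicate 1 or 2 (adjusted p = 0.0713 and 0.0663), without CD104low replicate 1 or 3 (0.0689 and 0.0751) and after the length and GC correction (0.0952, limma). MAPKAPK5-AS1, across from a kinase gene of the stress-activated MAPK pathway, had 560.2, 635 and 592 in CD104high cells, against 880.0, 848 and 849 in CD104low cells (log2 fold change -0.53, SE 0.09, limma adjusted p = 0.00251). MAPKAPK5 fell as well, with a log2 fold change of -0.19 (adjusted p = 0.0406, limma), a call lost without CD104high replicate 1 or 2 (0.115 and 0.118) or CD104low replicate 1 or 3 (0.125 and 0.107), after quantile normalization (0.0868) and in limma without the trend (0.0527).

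Next come antisense RNAs whose sense genes encode secreted or immune proteins. IGFL2-AS1 (chr19:46189166-46203083, minus strand), named for a member of the secreted insulin growth factor-like family, had 107, 60.0 and 139 in CD104high cells, against 16.1, 10.1 and 8.98 in CD104low cells. Its log2 fold change of 2.98 ± 0.38 (SE; adjusted p = 0.000676, limma) was the largest of the 62 called. IGFL2 was not analysed here. TLR8-AS1 (chrX:12902817-12908333, minus strand) lies over TLR8, the gene of the endosomal receptor for single-stranded RNA, and had 97.0, 135 and 136 in CD104high cells, against 41.2, 53.6 and 47.2 in CD104low cells, a log2 fold change of 1.35 ± 0.22 (SE; adjusted p = 0.00202, limma). TLR8 itself was listed at 3.66, 3.53 and 9.12 in CD104high cells, against 4.02, 2.02 and 6.74 in CD104low cells, too low to be tested. C1RL-AS1 (chr12:7108052-7122501, plus strand), across from the gene of a complement C1r-like protease, had 96.1, 79.4 and 63.9 in CD104high cells, against 40.2, 39.4 and 31.4 in CD104low cells (log2 fold change 1.08, SE 0.25, limma adjusted p = 0.0084), and C1RL had 117, 127 and 149 in CD104high cells, against 35.2, 69.8 and 29.2 in CD104low cells (log2 fold change 1.63, SE 0.32, limma adjusted p = 0.00426). Every CD104high library lay above every CD104low library in IGFL2-AS1, TLR8-AS1, C1RL-AS1 and C1RL, while in TLR8 the populations overlapped.

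CD27-AS1, named for a lymphocyte receptor gene, had 274, 296 and 218 in CD104high cells, against 161, 165 and 137 in CD104low cells, with a log2 fold change of 0.76 ± 0.17 (SE; adjusted p = 0.00711, limma). CD27 was not analysed here. HLA-F-AS1 had 30.2, 30.0 and 29.4 in CD104high cells, against 10.1, 24.3 and 28.1 in CD104low cells, and was not called (0.62, adjusted p = 0.245, limma). HLA-F, a non-classical MHC class I gene, had 779.9, 866 and 693 in CD104high cells, against 223, 333 and 135 in CD104low cells, and rose (log2 fold change 1.84, SE 0.28, limma adjusted p = 0.00139). Reads of HLA genes can be divided among near-identical copies, so these values are uncertain. Beside these, LAPTM5 and CD14 also rose, of 4 leukocyte markers measured. CORO1A (log2 fold change -0.23, adjusted p = 0.393) and CD79A (-0.30, 0.724, limma) were not called. LAPTM5 had 401, 380.4 and 561 in CD104high cells, against 175, 196 and 225 in CD104low cells, and CD14 had 278, 335 and 375 in CD104high cells, against 145, 208 and 175 in CD104low cells. Their part in the results above was not tested.

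Among the pairs named here, 4 have sense genes of protein turnover. PSMG3-AS1 (chr7:1570073-1589626, plus strand) starts 28 bp from PSMG3, the gene of a proteasome assembly chaperone. It had 427, 337 and 403 in CD104high cells, against 202, 180.0 and 163 in CD104low cells, a log2 fold change of 1.09 ± 0.15 (SE; adjusted p = 0.000896, limma). PSMG3 had 1520.4, 1301 and 1679 in CD104high cells, against 1995, 1827 and 2089 in CD104low cells, and fell (log2 fold change -0.40, SE 0.11, limma adjusted p = 0.0154), without overlap in either row. Without CD104low replicate 1 or 3 PSMG3 was not called (adjusted p = 0.0589 and 0.0553, limma). PSMA3-AS1 had 2048, 2146 and 1503 in CD104high cells, against 1732, 2026 and 1412 in CD104low cells, and was not called (0.14 ± 0.16, adjusted p = 0.525, limma). PSMA3, a subunit gene of the proteasome core, had 6509, 6272 and 7095 in CD104high cells, against 13257, 9661 and 12413 in CD104low cells, and fell (log2 fold change -0.82, SE 0.11, limma adjusted p = 0.000939).

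OTUD6B-AS1, head-to-head with the deubiquitinase gene OTUD6B at a start distance of 7 bp, had 1765, 1965 and 1791 in CD104high cells, against 3287, 2594 and 3073 in CD104low cells, a log2 fold change of -0.69 ± 0.10 (SE; adjusted p = 0.00103, limma). OTUD6B had 1273, 1270.0 and 1215 in CD104high cells, against 3190.0, 2330.5 and 2895 in CD104low cells, with a log2 fold change of -1.15 ± 0.11 (SE; adjusted p = 0.000298, limma). Every CD104high library lay below every CD104low library in both rows. UBE2D3-AS1 (chr4:102828055-102844075, plus strand), across from a ubiquitin-conjugating enzyme gene, had 21.1, 15.9 and 31.4 in CD104high cells, against 41.2, 56.6 and 55.0 in CD104low cells (log2 fold change -1.17, SE 0.32, limma adjusted p = 0.0185), and UBE2D3 fell (log2 fold change -0.29, SE 0.06, limma adjusted p = 0.00573). UBE2D3-AS1 lost its call without CD104high replicate 1 or 2 (adjusted p = 0.0576 and 0.0567), CD104low replicate 3 (0.057) and after the length and GC correction (0.0701), which also ended that of UBE2D3 (0.0784, limma).

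SCOC-AS1 (chr4:140283724-140373381, minus strand), whose window with the 4 CCAAT boxes is printed above, is named for the gene of a short coiled-coil protein of the Golgi. It had 7.32, 8.83 and 20.3 in CD104high cells, against 46.3, 41.5 and 60.6 in CD104low cells, a log2 fold change of -2.05 ± 0.41 (SE; adjusted p = 0.00454, limma). SCOC had 3381, 3901 and 4168 in CD104high cells, against 8434, 5924 and 7769 in CD104low cells, with -0.94 ± 0.13 (SE; adjusted p = 0.001, limma). CD104high replicate 3 was the highest of its population in both rows, and the populations did not overlap. LURAP1L-AS1 (chr9:12698554-12814345, minus strand), across from the gene of a leucine-rich adaptor-like protein, had 12.8, 7.94 and 10.1 in CD104high cells, against 40.2, 17.2 and 46.0 in CD104low cells (log2 fold change -1.56, SE 0.44, limma adjusted p = 0.0198), and LURAP1L was not called (-0.16, adjusted p = 0.647, limma). CD104low replicate 2 came close to the CD104high values, and the LURAP1L-AS1 call was lost without CD104high replicate 2 (adjusted p = 0.0579), CD104low replicate 1 (0.0827), CD104low replicate 3 (0.0725) and after the length and GC correction (0.0689, limma).

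Among antisense RNAs of transcription and chromatin regulators, ZMIZ1-AS1 (chr10:78943328-79067895, minus strand) was the 1 called with a log2 fold change over 1 in size. It had 187, 208 and 197 in CD104high cells, against 98.6, 90.0 and 84.2 in CD104low cells, with a log2 fold change of 1.11 ± 0.16 (SE; adjusted p = 0.00106, limma). ZMIZ1, the gene of a PIAS-like transcriptional coactivator, had 15249, 15644 and 15727 in CD104high cells, against 7620.0, 8767 and 9022 in CD104low cells, with a log2 fold change of 0.88 ± 0.07 (SE; adjusted p = 0.000217, limma). The 3 libraries of each population lay close together in both rows, and the annotated genes of this pair do not overlap. FOXP4-AS1, 183 bp head-to-head from the forkhead factor gene FOXP4, had 137, 136 and 103 in CD104high cells, against 230.3, 232 and 211 in CD104low cells (log2 fold change -0.84, SE 0.17, limma adjusted p = 0.00439). FOXP4 had 10657, 11699 and 10158 in CD104high cells, against 9251, 9331 and 9412 in CD104low cells, and moved the other way (log2 fold change 0.21, SE 0.07, limma adjusted p = 0.0286). That small rise of FOXP4 turned to -0.11 after the length and GC correction, and was not called without CD104high replicate 1 or 2 (adjusted p = 0.0715 and 0.102), without CD104low replicate 1 or 3 (0.0884 and 0.0687) or in limma without the trend (0.0697).

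SNAI3-AS1, across from a SNAIL-family repressor gene, had 216, 184 and 229 in CD104high cells, against 135, 143 and 134 in CD104low cells (log2 fold change 0.61, SE 0.15, limma adjusted p = 0.0125), and SNAI3 was not called (0.67, adjusted p = 0.0957, limma) except without CD104low replicate 2 (0.0435). The SNAI3-AS1 call was lost without CD104high replicate 1 (adjusted p = 0.0527) and after quantile normalization (0.0756, limma). ZEB1-AS1 had 218, 246 and 213 in CD104high cells, against 289.6, 256 and 262 in CD104low cells, lower in every CD104high library, but its log2 fold change of -0.25 missed the threshold (adjusted p = 0.156, limma), except after quantile normalization (-0.46, adjusted p = 0.0261). ZEB1, the EMT repressor gene, had 0.15 (adjusted p = 0.188, limma), and 0.22 after the length and GC correction (adjusted p = 0.0455). GATA6-AS1 (0.20, adjusted p = 0.421) and JARID2-AS1 (0.09, adjusted p = 0.866) were not called. JARID2, the gene of a cofactor of the Polycomb methyltransferase PRC2, rose (log2 fold change 0.49, SE 0.08, limma adjusted p = 0.00153).

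Of the 8 most abundant antisense RNAs 1 rose (OIP5-AS1), 3 fell (OTUD6B-AS1, NUTM2A-AS1 and THAP9-AS1) and 4 were not called, where 53.9% of all genes with a mean of 1000 or more were called. FGD5-AS1 was the most abundant, with 11285 ± 592 in CD104high cells and 10825 ± 601 in CD104low cells (SD, n = 3 each), and was not called (0.06, adjusted p = 0.5, limma). PAX8-AS1, with 5395, 5309 and 4515 in CD104high cells, against 5503, 5542 and 5352 in CD104low cells, was not called (-0.11, adjusted p = 0.278) but had -0.36 (adjusted p = 0.00379, limma) after the length and GC correction. PAX8, a thyroid and kidney transcription factor gene, rose (log2 fold change 0.66, SE 0.13, limma adjusted p = 0.00415). OIP5-AS1, a long noncoding RNA known as cyrano that carries a site for miR-7, is described with its partner below.

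THAP9-AS1, across from a gene derived from a transposase, had 1044, 1235 and 1096 in CD104high cells, against 1904, 1779 and 1682 in CD104low cells, without overlap (log2 fold change -0.67, SE 0.09, limma adjusted p = 0.000888), and THAP9 had 0.04 (adjusted p = 0.884, limma). NUTM2A-AS1 had 1736, 1785 and 1883 in CD104high cells, against 2262, 2099 and 2153 in CD104low cells (log2 fold change -0.27, SE 0.07, limma adjusted p = 0.0154), a call lost without CD104high replicate 1 (adjusted p = 0.0676), without CD104low replicate 1 (0.0668) and after the length and GC correction (0.109, limma). NUTM2A belongs to a family of near-identical copies, so its reads are uncertain. ARRDC1-AS1, across from the gene of an arrestin-domain protein of vesicle budding, had 1453, 1386 and 1444 in CD104high cells, against 1782, 1569 and 1531 in CD104low cells, and was not called (log2 fold change -0.19, adjusted p = 0.102), but was after the length and GC correction (adjusted p = 0.0333, limma).

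Several antisense RNAs often studied in tumour cells gave no call. AFAP1-AS1 spread widely, with 1406, 1645 and 699 in CD104high cells, against 1308, 1246 and 871 in CD104low cells, and overlapped between populations (0.06 ± 0.30, adjusted p = 0.882, limma). TMPO-AS1 (-0.08, adjusted p = 0.791), MKLN1-AS (-0.05, 0.798), SBF2-AS1 (-0.25, 0.273), PCBP1-AS1 (0.47, 0.0892) and ST7-AS1 (0.56, 0.0858) were not called either (log2 fold change and adjusted p, limma). Without CD104low replicate 2, PCBP1-AS1 had 0.66 and an adjusted p of 0.0229, and ST7-AS1 reached 0.0141 in limma without the trend. Of their partners, TMPO, the gene of a nuclear lamina protein, fell (log2 fold change -0.42, SE 0.09, limma adjusted p = 0.00553). PCBP1 (-0.54) was not called, but was after quantile normalization (adjusted p = 0.039) and without CD104high replicate 3 (0.00177, limma). It also was with DESeq2 on recovered reads (0.0311). By the authors' deposited DESeq2 values PCBP1-AS1 was higher (0.44, adjusted p = 0.0325) and PCBP1 lower (-0.50, 0.0183).

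Over the 310 pairs with both rows tested, partners had the same sign in 180, or 58.1% (95% Wilson interval 52.5 to 63.4%, covering counting error only), and the Spearman correlation between their log2 fold changes was 0.21. The points share libraries and, within pairs with exon overlap, may share reads. As a measure of what neighbouring genes do in these libraries, 1393 pairs of protein-coding genes on opposite strands with starts within 1 kb had the same sign in 57.9%, with a Spearman correlation of 0.21. At antisense means of 200 or more, 49.3% of 71 antisense pairs had the same sign (Spearman correlation 0.07). At antisense means under 50, 59.9% of 142 did (0.20). Both rows were called in 33 antisense pairs. In 25 of these both moved the same way (14 higher, 11 lower) and in 8 they moved in opposite ways. Of the 1393 protein-coding pairs 338 had both rows called, 234 in the same way and 104 in opposite ways. The antisense RNA alone was called in 22 pairs, the sense gene alone in 96 and neither in 159. Among the 1393 protein-coding pairs the gene listed first alone was called in 343, the other alone in 301 and neither in 411. With antisense means under 50, the antisense RNA alone was called in 1 and the sense gene alone in 46 of 142 pairs. At antisense means of 200 or more these counts were 6 and 19 of 71. Without CD104high replicate 1 the counts of same and opposite pairs were 10 and 2, without CD104low replicate 1 they were 11 and 1, and without CD104low replicate 3 they were 11 and 4. Without CD104high replicate 2 they were 13 and 4, and without CD104low replicate 2 they were 24 and 13.

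**Figure D3:**
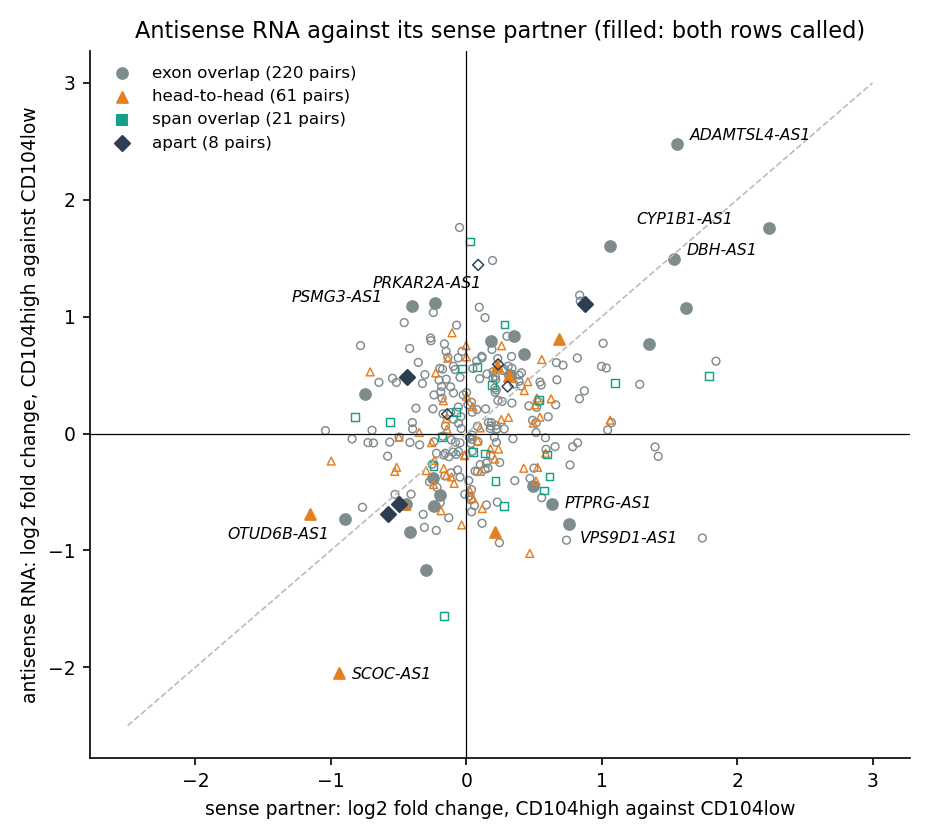
Log2 fold change of CD104high against CD104low cells for the sense partner (x axis) and the antisense RNA (y axis) in 310 pairs, by arrangement: exon overlap (grey circles), head-to-head (orange triangles), overlap without shared exon bases (green squares) and apart (dark diamonds). Filled symbols are the 33 pairs with both rows called, and the dashed line marks equal change. Most pairs lie in a broad cloud around 0, with filled symbols in all 4 quadrants.

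By arrangement, the same sign was found in 57.3% of 220 pairs with exon overlap (Spearman correlation 0.19) and in 62.3% of 61 head-to-head pairs (0.31). It was found in 47.6% of 21 pairs that overlap without shared exon bases and have starts over 1 kb apart. Pairs with both rows called were 17 same and 6 opposite in the first class, 5 same and 1 opposite in the second and none in the third. Within the exon overlap class, pairs with starts within 1 kb had the same sign in 54.5% of 134, and pairs with starts farther apart in 61.6% of 86. In the 11 pairs where at least 50% of the antisense exon bases lay over sense exons, 5 had the same sign and none had both rows called. At antisense means of 50 or more, the same sign was found in 57.3% of 124 pairs with exon overlap and in 54.8% of 31 head-to-head pairs. Differences between these classes were not tested.

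Of the pairs that moved together, those with the largest shared change included CYP1B1, ADAMTSL4, DBH, C1RL, SCOC, ZMIZ1, FLG, COA6 and OTUD6B, whose values are given above. In the pairs of ADAMTSL4, SCOC and ZMIZ1 the antisense RNA had the larger log2 fold change in size, and in the other 6 named the sense gene had it.

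**Figure D4:**
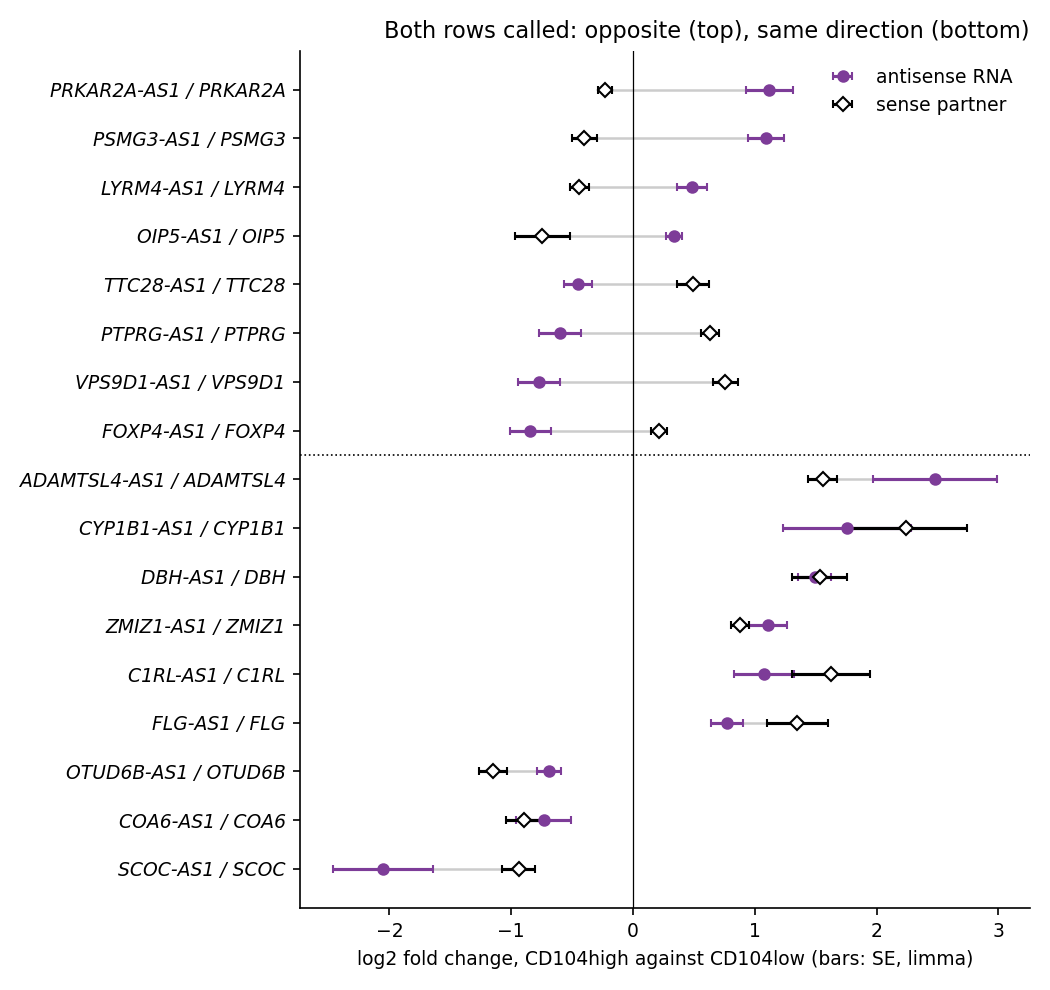
Log2 fold change of CD104high against CD104low cells (x axis, bars are the SE from limma) for antisense RNAs (purple circles) and sense partners (open diamonds) in the 8 pairs called in opposite directions (above the dotted line) and 9 same-direction pairs with a large shared change (below it). In the upper 4 pairs the antisense RNA was higher, in the next 4 lower, in CD104high cells.

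The 8 pairs that moved in opposite directions were split evenly, with the antisense RNA higher in those of PRKAR2A, PSMG3, LYRM4 and OIP5 and lower in those of VPS9D1, PTPRG, FOXP4 and TTC28. LYRM4-AS1, which lies apart from LYRM4, the gene of a small protein needed for iron-sulphur cluster assembly, had 438, 449 and 400.5 in CD104high cells, against 294, 290.2 and 337 in CD104low cells (log2 fold change 0.48, SE 0.12, limma adjusted p = 0.0121). LYRM4 had 1961, 1927 and 1931 in CD104high cells, against 2878, 2432 and 2607 in CD104low cells, and fell (log2 fold change -0.44, SE 0.08, limma adjusted p = 0.00271). The LYRM4-AS1 call was lost without CD104high replicate 1 (adjusted p = 0.0502), without CD104low replicate 1 (0.051) and after quantile normalization (0.0686, limma).

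OIP5-AS1 had 5526, 6096 and 6016 in CD104high cells, against 4857, 4544 and 4543 in CD104low cells, with no overlap and a log2 fold change of 0.34 ± 0.07 (SE; adjusted p = 0.00393, limma). OIP5, the gene of a Mis18 complex subunit that loads the centromeric histone CENP-A, had 185, 232 and 283 in CD104high cells, against 459, 281 and 445 in CD104low cells (log2 fold change -0.74, SE 0.23, limma adjusted p = 0.0271). CD104high replicate 3 and CD104low replicate 2 of OIP5 overlapped, and its call was lost without CD104high replicate 1 or 2 (adjusted p = 0.0989 and 0.0578), without CD104low replicate 1 or 3 (0.111 and 0.086), after the length and GC correction (0.0678) and in limma without the trend (0.0591).

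VPS9D1-AS1, 29.5% of whose exon bases lie across from exons of VPS9D1, the gene of a VPS9 domain protein, had 524, 565 and 352 in CD104high cells, against 792, 747 and 879 in CD104low cells (log2 fold change -0.77, SE 0.17, limma adjusted p = 0.00792). VPS9D1 had 970.3, 1082 and 985 in CD104high cells, against 589, 658 and 549 in CD104low cells, and rose (log2 fold change 0.76, SE 0.10, limma adjusted p = 0.000848). Neither row overlapped between populations, and per kilobase VPS9D1-AS1 stood at 127% of VPS9D1 over the 6 libraries. TTC28-AS1 had 376, 388 and 359.9 in CD104high cells, against 556, 458 and 529 in CD104low cells (log2 fold change -0.45, SE 0.12, limma adjusted p = 0.014), and TTC28, the gene of a tetratricopeptide repeat protein, had 1138, 1238 and 988 in CD104high cells, against 676, 896 and 825 in CD104low cells (log2 fold change 0.49, SE 0.13, limma adjusted p = 0.0155). The TTC28-AS1 call was lost without CD104low replicate 1 (adjusted p = 0.0657), and that of TTC28 without CD104high replicate 1 or 2 (0.0552 and 0.0538), without CD104low replicate 1 (0.0595) and after the length and GC correction (0.269, limma).

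The antisense to sense ratio, taken in each library as log2(antisense + 1) minus log2(sense + 1), did not overlap between populations in 91 of 310 pairs (29.4%), against 53.8% of the 1393 protein-coding pairs. This share moved with the antisense level. It was 16.2% of 142 pairs with an antisense mean under 50, 40.5% of 168 at 50 or more and 52.1% of 71 at 200 or more. In the exact permutation test 3 against 3 libraries cannot go below p = 0.10, so no single pair can pass 0.05. Where ratios do not overlap, p is always 0.10. The pairs below were picked among those, so their exact p was fixed by the choice and tests nothing. The largest shift among these 91 was that of NEBL-AS1 over NEBL, the gene of the actin-binding protein nebulette, with log2 ratios of -3.16, -2.26 and -3.83 in CD104high cells, against -1.21, 0.26 and -0.40 in CD104low cells (difference -2.64, exact p = 0.1). NEBL-AS1 had 9.15, 19.4 and 4.06 in CD104high cells, against 12.1, 23.3 and 20.2 in CD104low cells, and was not called (-0.89, adjusted p = 0.221, limma). NEBL had 89.7, 97.1 and 71.0 in CD104high cells, against 29.2, 19.2 and 27.0 in CD104low cells (log2 fold change 1.74, SE 0.26, limma adjusted p = 0.00136), with no overlap, and was the called row.

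MYLK-AS1 over MYLK, the gene of myosin light chain kinase, shifted by -1.61 (exact p = 0.1), with log2 ratios of -6.76, -6.89 and -7.44 in CD104high cells, against -5.03, -5.80 and -5.43 in CD104low cells. MYLK had 7547, 6202 and 8986 in CD104high cells, against 2493, 2477 and 3570.1 in CD104low cells (log2 fold change 1.42, SE 0.17, limma adjusted p = 0.000518), while MYLK-AS1 was not called (-0.20, adjusted p = 0.619, limma). In the HHIP pair, whose window is printed above, the log2 ratios were -0.71, -0.14 and -0.77 in CD104high cells, against 1.10, 1.16 and 0.65 in CD104low cells (difference -1.51, exact p = 0.1). HHIP, the gene of a hedgehog-binding antagonist, had 295, 169 and 429.9 in CD104high cells, against 102, 84.9 and 135 in CD104low cells, and rose (log2 fold change 1.39, SE 0.32, limma adjusted p = 0.00893), and HHIP-AS1 had 180.3, 154 and 251 in CD104high cells, against 218, 191 and 212 in CD104low cells, not called (-0.11, adjusted p = 0.667, limma). The nearest GENCODE starts of these partners lie 34 bp apart. Their RefSeq start windows, set on other starts, have 236 bases in common.

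For ATP2A1-AS1, opposite the gene of the muscle calcium pump SERCA1, the shift of -1.65 (exact p = 0.1) came with a fall of the antisense RNA. ATP2A1-AS1 had 78.7, 60.0 and 68.9 in CD104high cells, against 134, 110.2 and 150.5 in CD104low cells (log2 fold change -0.91, SE 0.20, limma adjusted p = 0.00757), and ATP2A1 was not called (0.74, adjusted p = 0.128), but had 1.17 without CD104low replicate 2 (adjusted p = 0.00786, limma). VPS9D1-AS1 over VPS9D1 shifted by -1.53, with log2 ratios of -0.89, -0.94 and -1.48 in CD104high cells, against 0.43, 0.18 and 0.68 in CD104low cells (exact p = 0.1).

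**Figure D5:**
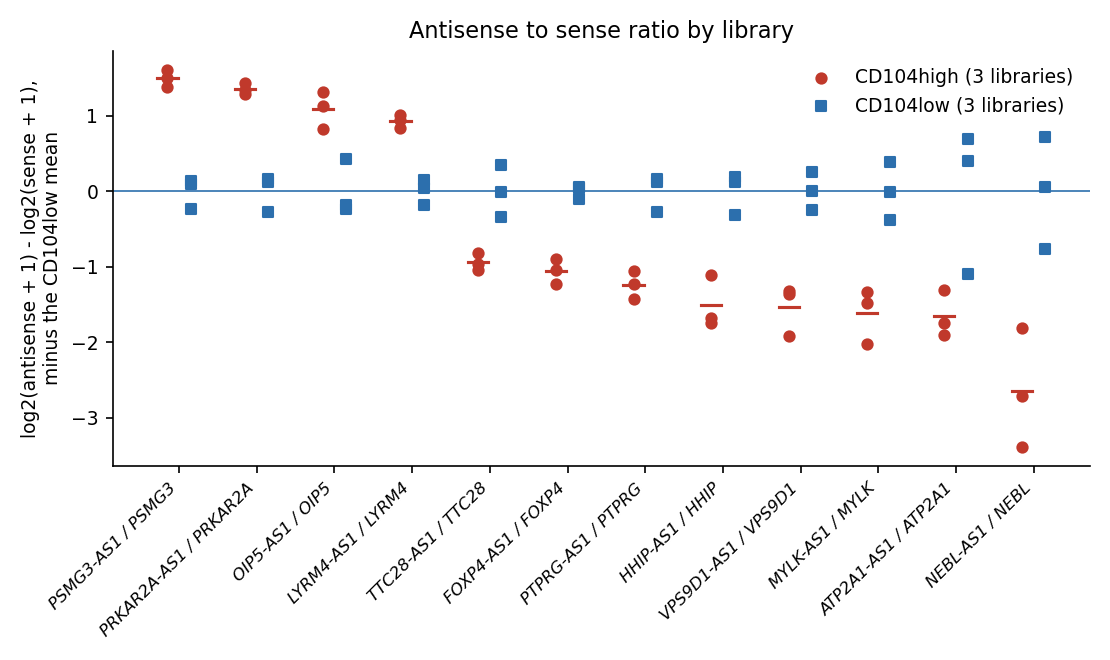
Log2 of the antisense RNA over the sense partner in each library, minus the CD104low mean of the pair (y axis), for the 8 pairs called in opposite directions and the 5 with the largest shift among pairs whose ratios do not overlap between populations, ordered from higher to lower in CD104high cells. VPS9D1 belongs to both sets, so 12 pairs are shown. Red circles are CD104high libraries with their mean as a bar, and blue squares CD104low libraries. In each of the 12 pairs the populations do not overlap, from a shift of 1.49 for PSMG3 to -2.64 for NEBL.

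RefSeq gave start windows for 238 of the antisense RNAs and 263 sense partners, with both for 203 pairs, of which 39 share bases (a median of 196 of 300). The windows were rich in CG dinucleotides, with a median of 22 for antisense RNAs and 25 for sense partners, against 14 in all 27305 RefSeq windows. That background was not limited to genes listed in these libraries. It is thus not matched for expression, here or for the motifs below. The SP1 motif GGGCGG stood, on either strand, in 60.5% of antisense windows and 67.7% of sense windows, against 44.6% of all. The TATA box letters TATAAA stood in 6.72% and 7.22%, against 12.0% of all. The cAMP response element TGACGTCA, the site of the PKA target CREB, stood in 2.94% of antisense and 4.18% of sense windows, against 1.98% of all, and its shorter form TGACG, which the full element contains, in 32.8% and 31.2%, against 25.01%. The full element lies in the shared stretch of the HHIP window above and in the start windows of PTPRG-AS1 and JARID2-AS1. A match is a description of letters and not of binding.

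Other families of noncoding RNA in the same libraries gave 6 calls among 46 divergent transcripts (3 higher, 3 lower, 13.0%), 42 among 167 intergenic RNAs with LINC symbols (29 higher, 13 lower, 25.1%) and 12 among 23 small nucleolar RNA host genes (1 higher, 11 lower, 52.2%), against 43.4% of all genes. Antisense RNAs, at 18.6%, thus lay between divergent and intergenic transcripts in share called, and these differences were not tested.

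Genes that handle double-stranded and antisense RNA changed in both directions. Of 35 listed genes 11 rose and 7 fell, or 51.4%, against 43.4% of all genes and 53.9% of all genes with a mean of 1000 or more. The listed genes were abundant, with a median mean of 3425. Of the 18 called, 8 kept their call in all alternatives. Among those 8 were ADAR, AGO4 and MPHOSPH8, which rose, and DHX9, EXOSC3, MTREX and TARBP2, which fell. ADAR, the adenosine deaminase of double-stranded RNA, had 16531, 17193 and 15007 in CD104high cells, against 11242, 12677 and 12275 in CD104low cells (log2 fold change 0.43, SE 0.07, limma adjusted p = 0.0023). AGO4, of the small RNA Argonaute family, rose (log2 fold change 0.63, SE 0.10, limma adjusted p = 0.00189), while TARBP2, the gene of a Dicer cofactor, fell (log2 fold change -0.54, SE 0.08, limma adjusted p = 0.00138). Of nuclear RNA decay, EXOSC3, a subunit gene of the exosome, had 1519, 1399 and 1472 in CD104high cells, against 2556, 2204 and 2647 in CD104low cells (log2 fold change -0.75, SE 0.09, limma adjusted p = 0.000506). Every CD104high library was below every CD104low library in EXOSC3 and above in ADAR. MTREX, the gene of the exosome helicase, fell too (log2 fold change -0.43, SE 0.07, limma adjusted p = 0.00164). Of other listed genes of the exosome and its cofactors, DIS3 fell (-0.27, adjusted p = 0.0126), but not without CD104high replicate 1 (0.0592, limma). EXOSC10 (-0.10, 0.244), ZCCHC8 (-0.11, 0.312) and ZFC3H1 (0.19, 0.134, limma) were not called. MPHOSPH8, of the HUSH silencing complex, rose (log2 fold change 0.42, SE 0.07, limma adjusted p = 0.00245). DICER1 (log2 fold change 0.27, SE 0.08, limma adjusted p = 0.0261) and EIF2AK2 (log2 fold change 0.20, SE 0.06, limma adjusted p = 0.0254) were called higher but lost the call in 5 and 4 alternatives.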

How the data were processed

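RNA-seq was analysed in 6 sorted samples, 3 CD104high and 3 CD104low. Per the submitters' processing notes the authors used the build GRCh38 and the tools FastQC, Salmon 1.3.0 and DESeq2, while the sources used here name no annotation release, strand setting or filter. The authors deposited, per the file headers, a signal per gene and library (a scaled read count), a log2 fold change and its standard error in log2 units, and p-values. Every value of a library was a whole multiple of 1 step (100% within 0.01), so read counts (rounded estimates, if Salmon made them) were recovered from the deposited signal for the count tests used as alternatives. Columns were matched to samples by the labels in the sample titles.

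Genes with a scaled read count of at least 10 in at least 3 libraries (14420 of 15024) were tested in R 4.3.3 on log2(value + 1) with limma 3.58.1 (trended variance), with population as the only term, Benjamini-Hochberg adjustment over all tested genes and a threshold of 0.05, called here. Fold changes on this scale understate the change of low genes. Alternatives were a replicate block, pseudocounts of 0.5 and 5, other filters, limma without the trend, TMM and quantile scaling, a length and GC correction, edgeR 4.0.16 and DESeq2 1.42.0 on recovered reads, and leaving out each library. The limma step was also run on simulated data.

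Geometry, lengths and biotypes came from GENCODE 29 (99.8% of genes matched by identifier), and start windows from RefSeq on GRCh38.p14. Pairs were taken by symbol, and where a symbol stood on more than 1 row the row with the higher mean was used. Replicates of a population differed beyond sampling noise (chi-square per degree of freedom 13.5 to 46.3). Depth per library (49791498 to 60069719 reads) covers listed genes only.

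The members and lists were chosen with earlier results of these data known. Named are antisense RNAs called with log2 fold changes of 1 or more in size, the 8 most abundant, up to 10 opposite and 10 same-direction pairs, the 5 largest ratio shifts among pairs whose ratios do not overlap between populations, and a list of antisense RNAs with known roles or partners, which gave 52. Some named items are not reported here.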

Additional observations from a re-analysis of the deposited data

How the results depend on the processing

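Of 62 called antisense RNAs, between 33 (without CD104low replicate 1) and 62 kept their call and none changed sign in the 17 alternatives (a filter of 50 in 3 libraries tested 55 of them), with 46 kept after quantile normalization, 49 after the length and GC correction, 59 with edgeR and 61 with DESeq2 on recovered reads. Same-numbered libraries share only a number: their deviations correlated at 0.08, 0.36 and 0.32, and each library correlated best with its own number, a hint from the data and not the design. With the replicate block, 61 antisense RNAs rose and 34 fell, and both rows were called in 38 same-direction and 15 opposite pairs, and ATP2A1 (adjusted p = 0.0342) and PCBP1-AS1 (0.0333, limma) were called. Quantile normalization gave 17 higher and 40 lower, and the length and GC correction 52 higher and 19 lower. Leaving out 1 library gave 18 to 45 higher and 11 to 27 lower antisense RNAs, 56 to 86 higher and 25 to 52 lower sense partners, 2088 to 3192 higher and 2009 to 3198 lower among all genes, 10 to 24 same-direction and 1 to 13 opposite pairs, a same-sign share of 55.8 to 61.3% and 115 to 137 ratios without overlap (fewer libraries overlap less often). The cause was not tested. Over 101 named genes, 76 single settings lost a call and 19 gained one. Signs turned in 27, among called genes in FOXP4 alone (-0.11 after the length and GC correction). After that correction AFAP1 had -0.20, AFAP1-AS1 -0.14, CD44 -0.036, GATA6 -0.062, HHIP-AS1 0.062, MKLN1-AS 0.11 and TTN -0.13. After quantile normalization JARID2-AS1 had -0.21, LOXL1-AS1 -0.024 and THAP9 -0.19. Leaving out 1 library gave log2 fold changes of either sign in AFAP1-AS1 (-0.18 to 0.44), CD44 (-0.026 to 0.15), HHIP-AS1 (-0.31 to 0.042), JARID2-AS1 (-0.16 to 0.29), LURAP1L (-0.31 to 0.0074), MKLN1 (-0.0033 to 0.067), MKLN1-AS (-0.10 to 0.026), ST7 (-0.028 to 0.11), THAP9 (-0.11 to 0.19), TMPO-AS1 (-0.26 to 0.10) and VIM (-0.0079 to 0.11), none of them called with all libraries. At means under 50, 8 of 156 antisense RNAs were called, against 171 of 1248 protein-coding genes.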
